A study of Mus musculus with 24 samples.

Results

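Collagens are the triple-helical proteins of the extracellular matrix, and their genes are named by type and chain, as in Col1a1 for the first chain of type I. Every gene whose symbol follows that pattern of Col, a number, a and a number was taken, by the brightest probe set that carries its symbol alone. This gave 44 collagen genes of 22180 genes on the array, of which 11 encode chains of fibrillar types, 6 encode chains of the basement membrane type IV, and 27 encode chains of other types. The tests covered 43 of the 44 collagen genes among 15526 genes, since Col11a1, a fibrillar chain of cartilage, lay at a mean log2 signal of 7.19 and under the limit of 7.42 for tested genes.

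The samples were 24 arrays of white fat from the epididymal pad (eWAT), which lies next to the testis, 1 array per mouse and 3 in each of 8 groups. CON mice carried Syt10-Cre/Cre with Bmal1 +/-, and MUT mice carried Syt10-Cre/Cre with Bmal1 flox/-, so Cre at both Syt10 copies and a Bmal1 allele without function were present in every group. Cre acts where the Syt10 promoter is active, which includes the suprachiasmatic nucleus (SCN), the brain's central clock, and MUT mice are described as lacking clock function there. Both genotypes were sampled at circadian time (CT) 1, 7, 13 and 19 on day 2 of constant darkness after a light-dark schedule; CT0 stands for the expected lights-on. Ages are not given in the labels. Mice are the replicates, named 1 to 3 after the letters of their titles.

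The source field names mediobasal hypothalamus for all arrays while the titles and the dissection text name eWAT. Markers of adipocytes lay at a median signal percentile of 99.6 among genes (10 of 10 measured), and markers of hypothalamus and neurons at 38.6 (12 of 13 measured). Arntl, the gene of BMAL1, had its highest group mean at CT19 in CON (9.54) and at CT13 in MUT (9.52, beside 8.36 in CON), and its rhythm differed between genotypes (limma, adjusted p = 0.000328). In daily mean Arntl differed by 0.11 (adjusted p = 0.277) and Syt10 by -0.15 (adjusted p = 0.0141); fat is not the tissue the deletion targets, so neither checks it. Array medians ran from 7.80 to 7.94. Replicates 2 and 3 of CON CT7 and replicate 1 of CON CT13 had a narrower spread of signals over probe sets than the other 21. The SD ran from 1.58 to 1.59 in these 3 arrays and from 1.60 to 1.67 in the others. The gap is small, with 1.591 for CON CT7 replicate 3 and 1.598 for CON CT13 replicate 2. Results that rest on the 3 arrays are given without them below. CON CT7 then holds replicate 1 alone, so counts and p-values of that fit take no spread from CON CT7. Values are log2 signals that the authors made with RMA, and signals are compared between groups for a probe set, not between genes.

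Collagen chains are hydroxylated, folded into trimers and secreted, and different types build different structures. Types I, III and V assemble into the banded fibrils that carry tension, with type V at the core that sets fibril width, whereas type IV forms the sheet of the basement membrane that wraps each adipocyte and each capillary. Type VI forms beaded filaments around fat cells, types XII and XIV and their relatives (FACIT collagens) sit on the surface of fibrils, and types XV and XVIII (multiplexins) link basement membranes to the matrix next to them. Fibroblasts and progenitors, adipocytes, mural cells and endothelium all contribute chains in fat. In these bulk samples fewer cells of a type and less RNA per cell cannot be told apart.

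For 35 of the 44 genes RefSeq promoter windows were at hand (38 windows, GRCm38.p6). Windows of 4 genes are shown because the results below turn on these genes: Col5a3, the chain with the smallest p in CON, Col5a1 and Col3a1 of the same fibrils, and Col18a1, the chain with the smallest p between genotypes. Each is the 250 bases before the annotated start, 5′ to 3′ on the gene's strand, with matches on either strand to the CCAAT box (its name is its motif), the GC box GGGCGG and the TATA box TATAAA in capitals.
Col5a3, chr9:20815068-20815317, minus strand: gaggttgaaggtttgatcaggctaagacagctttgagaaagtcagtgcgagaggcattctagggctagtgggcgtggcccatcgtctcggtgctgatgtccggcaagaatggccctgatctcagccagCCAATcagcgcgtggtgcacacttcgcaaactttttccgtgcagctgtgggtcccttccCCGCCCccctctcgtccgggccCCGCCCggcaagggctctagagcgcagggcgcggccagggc
Col5a1, chr2:27886175-27886424, plus strand: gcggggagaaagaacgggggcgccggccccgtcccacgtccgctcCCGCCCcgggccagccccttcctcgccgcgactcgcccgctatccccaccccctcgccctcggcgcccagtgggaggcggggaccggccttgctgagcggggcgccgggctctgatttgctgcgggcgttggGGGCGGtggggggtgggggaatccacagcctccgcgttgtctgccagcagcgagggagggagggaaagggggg
Col3a1, chr1:45311288-45311537, plus strand: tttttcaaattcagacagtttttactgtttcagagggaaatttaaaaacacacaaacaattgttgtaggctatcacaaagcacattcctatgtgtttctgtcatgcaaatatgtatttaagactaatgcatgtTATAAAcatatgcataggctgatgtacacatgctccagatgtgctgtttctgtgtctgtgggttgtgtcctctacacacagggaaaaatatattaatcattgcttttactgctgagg
Col18a1, upstream one of its annotated starts, chr10:77166531-77166780, minus strand: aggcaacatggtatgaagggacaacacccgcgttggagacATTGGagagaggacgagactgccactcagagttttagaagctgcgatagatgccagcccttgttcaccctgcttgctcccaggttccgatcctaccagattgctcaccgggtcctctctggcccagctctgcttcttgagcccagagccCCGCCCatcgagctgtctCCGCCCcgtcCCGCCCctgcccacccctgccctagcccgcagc
Col4a1 and Col4a2, overlap of their first bases, chr8:11312805-11312826, plus strand: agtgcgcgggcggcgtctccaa

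The Col3a1 window was the AT-rich one of the set and held TATAAA 117 bases before the start and no GC box. Both Col5a1 and Col5a3 held 2 GC boxes, and Col5a3 also held CCAAT 122 bases before its start. Col18a1 has a further annotated start, at which none of these 3 motifs was found. The last line is the stretch where the head-to-head genes Col4a1 and Col4a2, which encode the partner chains of the common type IV trimer, overlap by 22 bases at their starts. Over all collagen windows the GC box stood in 22 of 38 (32.7% of all 32851 windows of this length), CCAAT in 13 (33.8% of all) and TATAAA in 5 (12.4% of all). No collagen window held the clock-related motifs searched on both strands, which were the E-box CACGTG (6.02% of all windows), the RORE core TAGGTCA (2.23%) and the D-box TTANNTAA (5.43%).

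In CON fat, 9 of the 43 tested collagen genes (20.9%) followed a 24-h rhythm, beside 17.1% of all genes tested. The question is which collagen transcripts vary over the circadian day when the central clock is intact. They were the fibrillar chains Col3a1, Col5a1, Col5a2 and Col5a3 (4 of 10), the basement membrane chains Col4a1 and Col4a2 (2 of 6), and Col6a1, Col14a1 and Col18a1 among the other types (3 of 27). The test was limma's moderated F for a 24-h cosine, adjusted over all genes at 0.05, and size is the log2 distance between crest and trough of the fitted curve, with its SE. The median size was 0.18 over the 43 collagens and 0.18 over all genes, 0.27 over the fibrillar chains, 0.09 over type IV and 0.18 over the other types. All 9 lay among the 20 collagens at or above the 60th signal percentile, where 24.3% of all genes passed, and none among the 23 dimmer ones, where 7.42% of all genes passed. The count was 4 without CON CT7 replicate 3 and 5 without CON CT19 replicate 1.

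The fitted peaks of the 9 genes ran from CT17.4 to CT2.03, each with an SE between 0.77 and 1.1 h, and no test compared them. Col14a1 (CT17.4), Col18a1 (CT17.8), Col6a1 (CT18.9), Col5a2 (CT20.6), Col3a1 (CT21.7) and Col5a1 (CT22.0) peaked in the subjective night and had their lowest group mean at CT7. The CT7 and CT13 means lay close for Col3a1 (10.27 and 10.28) and Col5a1 (9.22 and 9.27). Col5a3 (CT0.47), Col4a2 (CT1.36) and Col4a1 (CT2.03) peaked around subjective dawn and had their lowest group mean at CT13. Of all 2650 rhythmic genes, 73.8% peaked between CT16 and CT4, as all 9 collagens did, and 1076 had their lowest group at CT7.

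**Figure D1:**
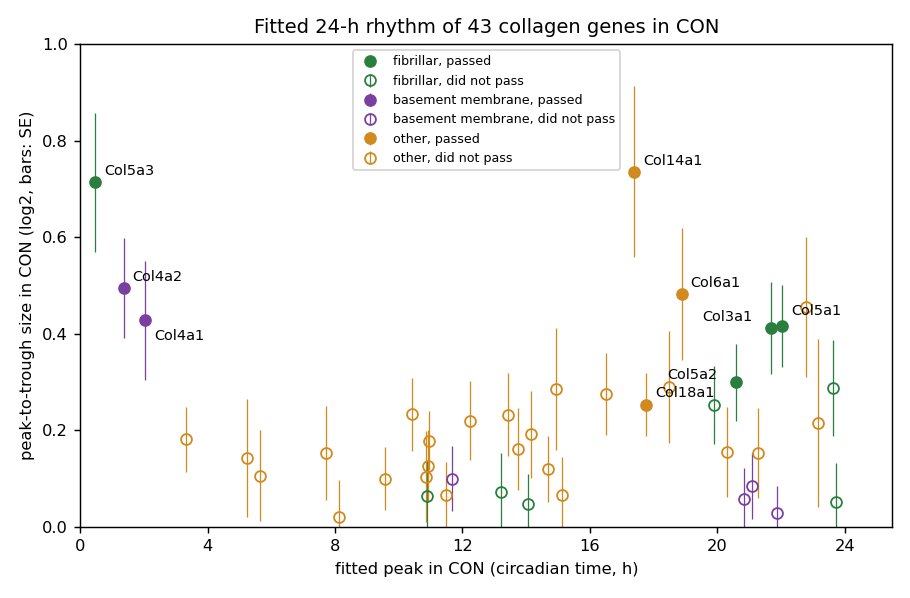
Fitted peak time (horizontal axis, circadian hours) and peak-to-trough size (vertical axis, log2, bars are SE) of the 43 tested collagen genes in CON, by collagen class; filled points passed the test. The 9 filled points lie before CT3 or after CT17, and Col14a1 (0.74) and Col5a3 (0.71) have the highest sizes.

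Col5a3, a chain of a minor type V trimer, stood out among the fibrillar genes by its size. In CON, Col5a3 gave 10.05, 10.15 and 9.97 at CT1, 9.67, 9.56 and 9.65 at CT7, 9.37, 9.32 and 9.35 at CT13, and 9.58, 9.72 and 9.88 at CT19. The 3 arrays of CT1 were all above every other CON array and the 3 arrays of CT13 all below them. Its size was 0.71 ± 0.14 (adjusted p = 0.00568), and the call held under every alternative tried, with adjusted p up to 0.0394. The MUT arrays gave 9.72, 9.92 and 10.41 at CT1, 9.72, 9.42 and 9.41 at CT7, 9.70, 9.47 and 10.10 at CT13, and 9.70, 9.78 and 9.99 at CT19. They overlapped between all time points except that the CT1 arrays lay at or above every CT7 array.

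Col5a1, the chain that most type V trimers contain, gave 9.55, 9.62 and 9.54 at CT1, 9.29, 9.20 and 9.18 at CT7, 9.21, 9.23 and 9.38 at CT13, and 9.52, 9.40 and 9.63 at CT19 in CON. Every CT1 and CT19 array was above every CT7 and CT13 array. The fitted size was 0.42 ± 0.09 (adjusted p = 0.00609). A second probe set of the gene was flat in CON, with group means of 8.36, 8.40, 8.48 and 8.36 from CT1 to CT19 and a size of 0.13, and the mean of both sets gave 0.15 (adjusted p = 0.266). Col5a2, its usual partner chain, gave 8.88, 8.72 and 8.76 at CT1, 8.53, 8.50 and 8.51 at CT7, 8.73, 8.64 and 8.64 at CT13, and 8.82, 8.63 and 8.91 at CT19 in CON. The CT7 arrays were the lowest of the CON set, and the size was 0.30 ± 0.08 (adjusted p = 0.0307). Omitting CON CT7 replicate 2 or 3, or CON CT19 replicate 1 or 3, ended the Col5a2 call.

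Col3a1, whose type III protein forms thin fibrils with type I in soft tissue, gave 10.65, 10.52 and 10.46 at CT1, 10.20, 10.31 and 10.29 at CT7, 10.23, 10.32 and 10.29 at CT13, and 10.49, 10.54 and 10.71 at CT19 in CON. The CT1 and CT19 arrays did not overlap with those of CT7 and CT13, and the size was 0.41 ± 0.10 (adjusted p = 0.0141). After quantile normalization the Col3a1 size was 0.29 (adjusted p = 0.107). The chains of type I, the main fibril protein, did not pass, although both did with array weights, where 27.0% of all genes passed. Col1a1 gave 10.62, 10.62 and 10.46 at CT1, 10.28, 10.46 and 10.25 at CT7, 10.33, 10.19 and 10.36 at CT13, and 10.44, 10.36 and 10.49 at CT19 in CON, with a size of 0.29 ± 0.10 (adjusted p = 0.102). Col1a2 gave 9.99, 10.01 and 9.85 at CT1, 9.79, 9.73 and 9.67 at CT7, 9.93, 9.74 and 9.999 at CT13, and 9.98, 9.80 and 10.15 at CT19, with a size of 0.25 ± 0.08 (adjusted p = 0.0779). The lowest mean was at CT13 for Col1a1 and at CT7 for Col1a2, and for both chains the CT13 arrays overlapped with or touched those of CT7 and CT19. The remaining tested fibrillar genes, Col2a1 and Col11a2 of cartilage fibrils, Col24a1 and Col27a1, had sizes from 0.05 to 0.07.

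Of the 6 basement membrane genes, the 2 that passed in CON encode the common type IV trimer. Col4a2 gave 10.12, 10.14 and 10.16 at CT1, 10.11, 9.87 and 9.82 at CT7, 9.59, 9.63 and 9.71 at CT13, and 9.87, 9.86 and 9.93 at CT19 in CON. All CT1 arrays were above all arrays of the other times and all CT13 arrays below them, and the size was 0.50 ± 0.10 (adjusted p = 0.0067). Col4a1 gave 10.28, 10.30 and 10.40 at CT1, 10.36, 10.10 and 10.15 at CT7, 9.89, 9.97 and 9.87 at CT13, and 10.05, 9.97 and 10.23 at CT19 in CON, and its CT13 arrays were the lowest, touching CT19 replicate 2 at 9.97. Its size was 0.43 ± 0.12 (adjusted p = 0.047). The Col4a1 call ended under 9 of 15 alternatives other than single omissions, the replicate block among them (adjusted p = 0.0613). It also ended with omission of any 1 of 16 arrays: all CON arrays but CT19 replicate 3, MUT CT1 replicate 2, MUT CT7 replicates 2 and 3, and MUT CT19 replicates 1 and 2. The chains of the rarer trimers, Col4a3, Col4a4, Col4a5 and Col4a6, which are best known from kidney and other specialised membranes, had sizes of 0.10, 0.085, 0.057 and 0.029.

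Some endothelial markers peaked at a time of day near that of Col4a1 and Col4a2 in CON. Of 8 markers measured, 4 passed the same test (24.3% of all genes at or above the 60th percentile did), and these peaked between CT1.12 and CT3.48: Cldn5, a tight junction protein, Kdr, a VEGF receptor, Cdh5 and Tie1. Pecam1, Tek, Emcn and Egfl7 did not pass. The score of the 8 markers is their median deviation from each gene's mean. It ran from 0.08 to 0.11 over the CON CT1 arrays and from -0.15 to 0.12 at CT7, so that the CT7 arrays spanned those of CT1. At CT13 it ran from -0.22 to -0.07 and at CT19 from -0.18 to 0.04. With this score as a covariate, an alternative chosen after the data were seen, Col4a2 had a size of 0.38 (adjusted p = 0.103) and Col4a1 of 0.30 (adjusted p = 0.354), while Col5a3 had 0.96 (adjusted p = 0.00195). The count of collagen calls was 9 with the covariate too, of which 7 were shared, beside 13.6% of all genes.

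The remaining calls were in the FACIT, multiplexin and type VI classes. Col14a1, a FACIT chain of loose connective tissue, gave 8.55, 9.06 and 8.56 at CT1, 8.25, 8.45 and 8.17 at CT7, 8.70, 8.81 and 9.56 at CT13, and 8.94, 8.92 and 9.03 at CT19 in CON. The CT7 arrays were all below every other CON array, while the arrays of CT13 spread from 8.70 to 9.56. Its size of 0.74 ± 0.18 (adjusted p = 0.0175) was the highest among collagens in CON, and omitting CON CT7 replicate 3 ended the call. Col18a1, whose protein carries the endostatin fragment at its end, gave 8.80, 8.74 and 8.73 at CT1, 8.48, 8.58 and 8.57 at CT7, 8.77, 8.84 and 8.92 at CT13, and 8.81, 8.75 and 8.78 at CT19 in CON. Its CT7 arrays were again below all others, and the size was 0.25 ± 0.07 (adjusted p = 0.0268). Omitting CON CT7 replicate 1 or 3, or CON CT19 replicate 1 or 3, ended the Col18a1 call.

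Col6a1, a core chain of type VI, gave 10.48, 10.53 and 10.45 at CT1, 10.05, 10.14 and 10.15 at CT7, 10.34, 10.34 and 10.82 at CT13, and 10.71, 10.41 and 10.66 at CT19 in CON, with a size of 0.48 ± 0.14 (adjusted p = 0.0431). The 3 CT7 arrays were lowest and did not overlap with the rest. That call ended without any 1 of 10 arrays (the CON CT1 and CON CT7 arrays, CON CT19 replicates 1 and 3, MUT CT7 replicate 3 and MUT CT19 replicate 1). It also ended under 8 of 15 other alternatives. Among these, the mean of its probe sets gave a size of 0.44 (adjusted p = 0.104) and quantile normalization gave 0.42 (adjusted p = 0.0659). Col6a2, its partner, gave 9.96, 10.09 and 9.86 at CT1, 9.79, 9.77 and 9.80 at CT7, 9.88, 9.98 and 10.17 at CT13, and 10.04, 9.96 and 10.21 at CT19, and Col6a3, the third chain of the trimer, gave 9.37, 9.57 and 9.40 at CT1, 9.30, 9.43 and 9.26 at CT7, 9.32, 9.36 and 9.49 at CT13, and 9.44, 9.41 and 9.58 at CT19. Neither passed, with sizes of 0.29 ± 0.12 (adjusted p = 0.174) and 0.16 ± 0.09 (adjusted p = 0.433). The 24 genes of the other types that did not pass, these included, had sizes from 0.02 (Col22a1) to 0.46 (Col15a1, adjusted p = 0.0742).

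**Figure D2:**
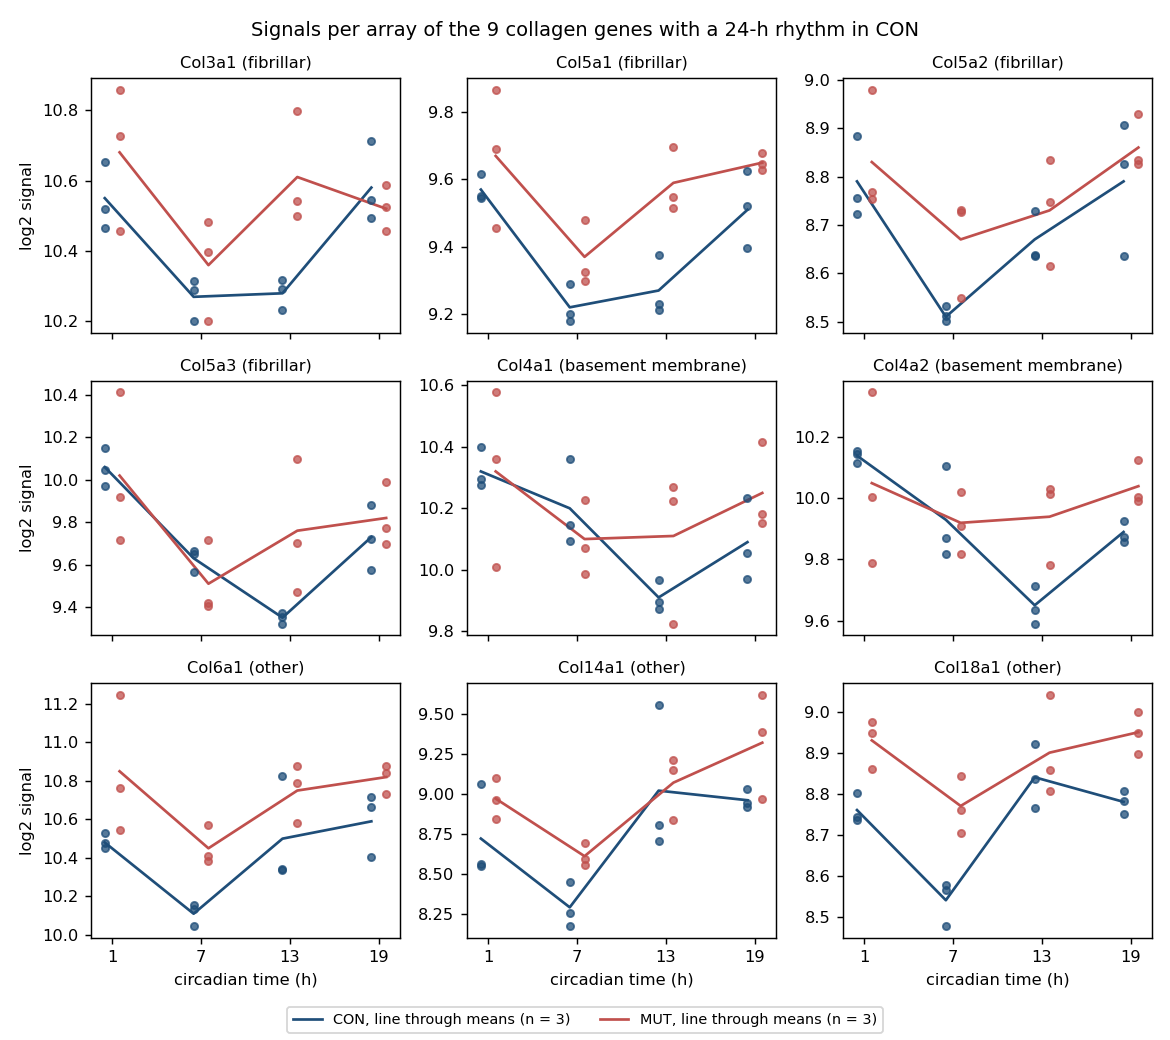
Log2 signal (vertical axis) of each array against circadian time (horizontal axis, h) for the 9 collagen genes that passed the rhythm test in CON; points are arrays, lines join means of 3, CON in blue and MUT in red. The CON minimum is at CT7 for Col3a1, Col5a1, Col5a2, Col6a1, Col14a1 and Col18a1, and at CT13 for Col5a3, Col4a1 and Col4a2.

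Marker scores of stromal, surface and mural cells and of macrophages were low at CT7 in CON, as were 6 of the chains. The fibroblast and preadipocyte score (7 of 8 markers measured) ran from -0.42 to -0.26 over the CON CT7 arrays and from -0.16 to 0.28 over the other CON arrays, and 4 of 7 markers passed, Cd34, Pi16, Dcn and Dpp4, with peaks from CT16.96 to CT18.25. The mesothelium score (8 of 8 measured; the mesothelium is the cell layer that covers the fat pad) ran from -0.70 to -0.61 at CON CT7 and from -0.51 to 0.45 at the other times, and 7 of 8 markers passed. The macrophage score ran from -0.31 to -0.27 at CON CT7 and from -0.19 to 0.35 elsewhere in CON, and 3 of 8 markers passed. The smooth muscle and pericyte score (7 of 7 measured) ran from -0.28 to -0.12 at CON CT7 and from -0.11 to 0.02 at the other CON times. Of its markers 1 of 7 passed. Beside these marker counts, 17.1% of all genes passed, and 24.3% of those at or above the 60th percentile. The part of these cells in the results was not tested beyond the covariates given here. With the fibroblast score as a covariate 5 collagens passed, of which 4 were among the 9, beside 5.08% of all genes. Of the calls that ended, Col14a1 had a size of 0.09 (adjusted p = 0.893; 0.74 without the score), while Col5a2 had 0.36, Col18a1 0.25, Col6a1 0.41 and Col4a1 0.39, against 0.30, 0.25, 0.48 and 0.43 without it. With the mesothelium score 6 passed, 4 of them among the 9, beside 9.47% of all genes, and Col14a1 had 0.23 (adjusted p = 0.676), Col18a1 0.16, Col6a1 0.34, Col5a2 0.27 and Col4a1 0.37. Under both covariates Col3a1, Col4a2, Col5a1 and Col5a3 kept their calls. Without the 3 arrays of narrow spread 2 collagens passed, Col4a2 (adjusted p = 0.0301) and Col5a3 (adjusted p = 0.0394), beside 6.51% of all genes. The sizes of the other 7 were then 0.845 for Col14a1, 0.56 for Col6a1, 0.49 for Col4a1, 0.45 for Col3a1, 0.35 for Col5a1, 0.325 for Col18a1 and 0.30 for Col5a2. With all arrays they were 0.74, 0.48, 0.43, 0.41, 0.42, 0.25 and 0.30.

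In MUT fat no collagen gene passed the same limma test, beside 0.348% of all genes tested. At an unadjusted p under 0.05, 10 of 43 collagens were counted (14.6% of all genes), 5 of them fibrillar. With array weights Col1a1, Col5a1, Col6a2 and Col14a1 passed, beside 3.57% of all genes. The lowest adjusted p was that of Col6a2 (0.0891), with a size of 0.52 ± 0.12 and a peak at CT20.2. The MUT arrays of Col6a2 gave 10.08, 10.12 and 10.73 at CT1, 9.88, 9.77 and 9.85 at CT7, 10.08, 10.24 and 10.15 at CT13, and 10.32, 10.30 and 10.35 at CT19. CT19 arrays were close together and above all CT7 arrays, and CT1 held the widest range. Col14a1 had nearly the same size in MUT, 0.72 ± 0.18 with a peak at CT18.5 (adjusted p = 0.111), from arrays of 8.84, 9.10 and 8.96 at CT1, 8.59, 8.56 and 8.69 at CT7, 8.84, 9.21 and 9.15 at CT13, and 9.62, 9.38 and 8.97 at CT19. Col1a1 had 0.37 ± 0.10 (adjusted p = 0.15), with 10.33, 10.68 and 10.92 at CT1, 10.33, 10.23 and 10.23 at CT7, 10.50, 10.59 and 10.45 at CT13, and 10.64, 10.57 and 10.61 at CT19.

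The other chains with a CON rhythm had these values in MUT. Col5a1 had a size of 0.29 ± 0.09 with 9.46, 9.69 and 9.87 at CT1, 9.48, 9.33 and 9.30 at CT7, 9.52, 9.70 and 9.55 at CT13, and 9.63, 9.68 and 9.65 at CT19. Col5a2 had 0.22 ± 0.08 with 8.75, 8.77 and 8.98 at CT1, 8.73, 8.55 and 8.73 at CT7, 8.75, 8.83 and 8.61 at CT13, and 8.83, 8.93 and 8.84 at CT19. Col3a1 had 0.18 ± 0.10 with 10.46, 10.73 and 10.86 at CT1, 10.48, 10.20 and 10.40 at CT7, 10.80, 10.50 and 10.54 at CT13, and 10.59, 10.46 and 10.53 at CT19. In each of the 3 the CT7 mean was the lowest of the MUT groups. Fitted MUT peaks of Col1a1, Col1a2, Col5a1, Col5a2 and Col5a3 lay between CT19.75 and CT21.68.

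Type IV in MUT showed wide replicates. Col4a2 gave 9.79, 10.01 and 10.35 at CT1, 10.02, 9.82 and 9.91 at CT7, 10.03, 10.01 and 9.78 at CT13, and 9.99, 10.004 and 10.13 at CT19, and Col4a1 gave 10.01, 10.36 and 10.58 at CT1, 10.23, 9.99 and 10.07 at CT7, 10.27, 10.22 and 9.82 at CT13, and 10.15, 10.18 and 10.41 at CT19. All 4 times overlapped for Col4a1, and the sizes were 0.16 ± 0.10 for Col4a2 and 0.26 ± 0.12 for Col4a1 (adjusted p = 0.637 and 0.479). MUT CT1 replicate 3 was the highest of all 24 arrays for Col1a1, Col3a1, Col4a1, Col4a2, Col5a1, Col5a2, Col5a3, Col6a1, Col6a2, Col6a3 and Col15a1. The median deviation of the 20 brighter collagens was 0.31 in that array and -0.025 and 0.11 in the other MUT CT1 arrays.

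Whether the rhythm itself differed between genotypes was tested directly, and no collagen passed (1.44% of all genes did). At an unadjusted p under 0.05 there were 2 of 43, Col4a2 and Col26a1, beside 15.7% of all genes. The vector difference was 0.42 ± 0.15 for Col4a2 (adjusted p = 0.248), 0.33 ± 0.12 for Col26a1, a chain known from gonads (adjusted p = 0.292), and 0.50 ± 0.20 for Col5a3 (adjusted p = 0.367). So a rhythm past the threshold in CON and not in MUT was not shown to differ for any collagen. Without MUT CT1 replicate 3, Col4a2 alone passed.

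**Figure D3:**
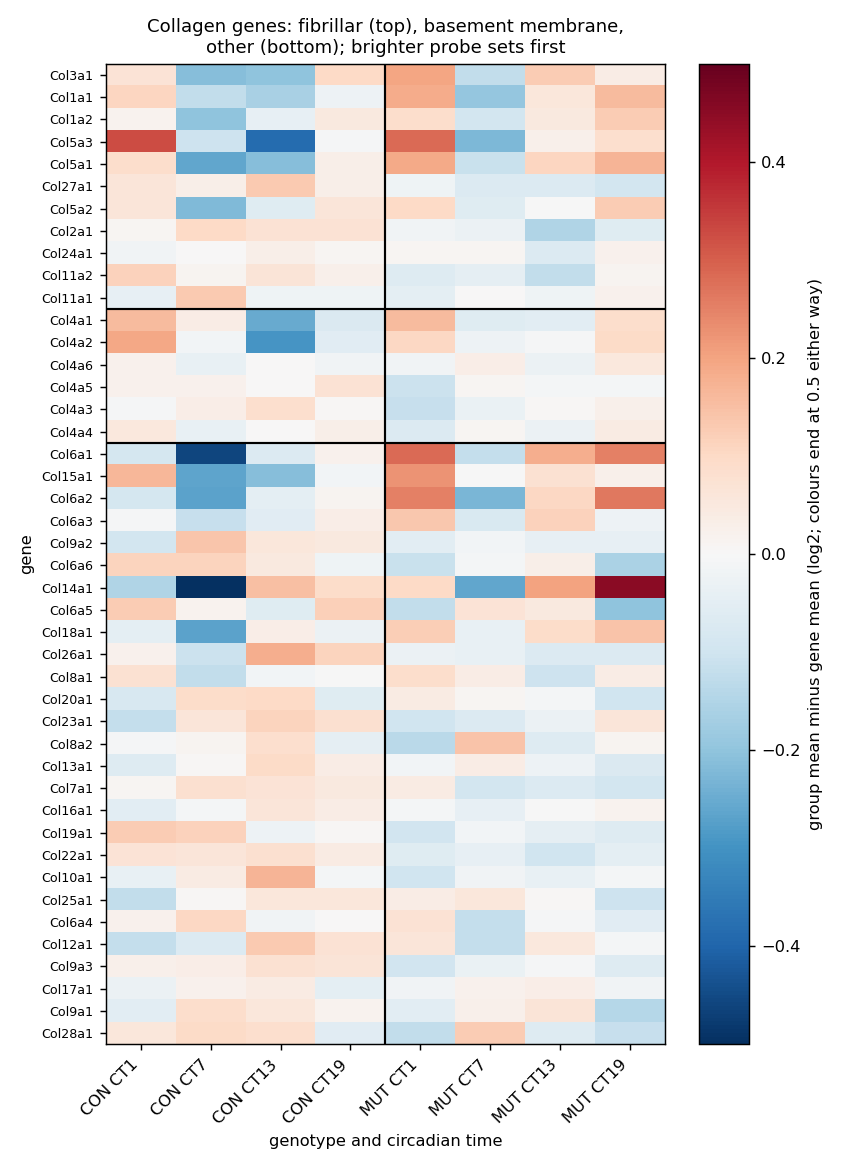
Deviation of each group mean from the gene's own mean (colour, log2, red above and blue below) for all 44 collagen genes (rows, by class and then by signal) in the 8 groups of genotype and circadian time (columns). Blue cells at CON CT7 gather in the brighter rows, such as Col14a1, Col6a1 and Col5a1, and at CON CT13 in Col5a3, Col4a1 and Col4a2.

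In daily mean, 9 of 43 collagens (20.9%) differed between genotypes, beside 21.7% of all genes, with 4 higher in MUT (12.3% of all genes) and 5 lower (9.42%). Higher were Col6a1 and Col6a2 of the type VI filament, the fibrillar Col5a1 and the multiplexin Col18a1. Lower were the fibrillar Col2a1 and Col27a1, the FACIT chains Col19a1 and Col22a1, and Col7a1 of anchoring fibrils, which tie epithelium to the tissue under it. By class these were 3 of 10 fibrillar, 0 of 6 type IV and 6 of 27 other chains, under limma's two-sided moderated test. No type IV gene reached an unadjusted p under 0.05, which 38.0% of all genes did, and the type IV differences ran from -0.06 to 0.09.

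Col18a1 had the smallest p. Its MUT arrays gave 8.98, 8.86 and 8.95 at CT1, 8.84, 8.71 and 8.76 at CT7, 8.86, 9.04 and 8.81 at CT13, and 8.90, 8.95 and 8.999 at CT19. They lay above all CON arrays of the same time at CT1, CT7 and CT19 and overlapped with them at CT13. Over the 12 arrays of a genotype, the lowest, median and highest were 8.48, 8.76 and 8.92 in CON and 8.71, 8.88 and 9.04 in MUT. The difference was 0.16 ± 0.03 (1.11-fold, adjusted p = 0.00439), and it was positive at 4 of 4 times. It kept its call under every alternative tried, with adjusted p up to 0.042. The Col18a1 difference at CT7 alone was 0.23 ± 0.07 (adjusted p = 0.0475), the single collagen call at a single time point, beside 4.05% of all genes at CT7. The smooth muscle and pericyte score ran from 0.03 to 0.28 at MUT CT7 against -0.28 to -0.12 at CON CT7. Of its markers 2 of 7 passed there, beside the same 4.05% of all genes, and its part in the Col18a1 call was not tested. The Col18a1 call at CT7 ended without any 1 of 19 arrays (all but CON CT13 replicates 1 and 3, MUT CT1 replicate 2, and MUT CT13 replicates 2 and 3) and under 8 other alternatives, with adjusted p up to 0.187.

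Col6a1 had the largest difference of the 9, 0.30 ± 0.07 (1.23-fold, adjusted p = 0.00671), higher at 4 of 4 times. Its MUT arrays gave 10.54, 10.77 and 11.25 at CT1, 10.57, 10.38 and 10.41 at CT7, 10.58, 10.88 and 10.79 at CT13, and 10.84, 10.88 and 10.73 at CT19. At CT1, CT7 and CT19 every MUT array exceeded every CON array, and at CT13 the genotypes overlapped. The second Col6a1 probe set differed by 0.64. Col6a2 was higher by 0.20 ± 0.06 (adjusted p = 0.0221), with arrays given above, and ran from 9.77 to 10.21 in CON and from 9.77 to 10.73 in MUT. The genotypes overlapped at CT1, CT7 and CT13 for Col6a2, and not at CT19. Col5a1 was higher by 0.17 ± 0.04 (adjusted p = 0.00905), where its second probe set gave -0.06 and the mean of both 0.06 (adjusted p = 0.234). Col14a1, at 0.24 ± 0.09, did not pass (adjusted p = 0.0522), nor did Col3a1 at 0.13 ± 0.05 (adjusted p = 0.0627) or Col1a1 at 0.10 ± 0.05 (adjusted p = 0.128).

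The 5 lower genes changed by little and had low signals, except Col27a1. Col27a1, a fibrillar chain of cartilage and other tissues, gave 9.23, 9.29 and 9.26 at CT1, 9.30, 9.22 and 9.18 at CT7, 9.37, 9.34 and 9.28 at CT13, and 9.19, 9.29 and 9.22 at CT19 in CON and 9.24, 9.03 and 9.29 at CT1, 9.28, 8.96 and 9.14 at CT7, 9.20, 9.23 and 8.98 at CT13, and 9.08, 9.12 and 9.14 at CT19 in MUT. The difference was -0.12 ± 0.04 (adjusted p = 0.0317), and the MUT arrays lay below all CON arrays at CT13 and CT19 and overlapped with them at CT1 and CT7. Col2a1, the main fibril chain of cartilage, gave 8.43, 8.45 and 8.41 at CT1, 8.53, 8.54 and 8.49 at CT7, 8.51, 8.53 and 8.42 at CT13, and 8.44, 8.46 and 8.56 at CT19 in CON and 8.41, 8.37 and 8.43 at CT1, 8.54, 8.30 and 8.32 at CT7, 8.32, 8.38 and 8.10 at CT13, and 8.39, 8.28 and 8.41 at CT19 in MUT. It differed by -0.13 ± 0.04 (adjusted p = 0.0206), and here too the genotypes overlapped at CT1 and CT7 and did not at CT13 and CT19.

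Col22a1, a FACIT chain of tissue junctions, gave 8.04, 8.03 and 7.95 at CT1, 8.06, 8.01 and 7.91 at CT7, 8.12, 7.95 and 7.97 at CT13, and 7.88, 8.01 and 8.03 at CT19 in CON and 7.94, 7.76 and 7.91 at CT1, 8.04, 7.76 and 7.87 at CT7, 7.91, 7.80 and 7.78 at CT13, and 7.84, 7.82 and 7.97 at CT19 in MUT, a difference of -0.13 ± 0.04 (adjusted p = 0.0223). Col19a1 gave 8.08, 8.04 and 8.07 at CT1, 7.91, 8.19 and 8.03 at CT7, 7.91, 7.94 and 7.89 at CT13, and 7.94, 7.92 and 7.97 at CT19 in CON and 7.72, 7.84 and 7.97 at CT1, 7.96, 7.91 and 7.91 at CT7, 7.89, 7.91 and 7.88 at CT13, and 7.82, 7.94 and 7.87 at CT19 in MUT, a difference of -0.11 ± 0.03 (adjusted p = 0.0276). Col7a1 gave 7.95, 8.05 and 8.19 at CT1, 8.15, 8.08 and 8.16 at CT7, 8.19, 8.07 and 8.10 at CT13, and 8.15, 8.03 and 8.12 at CT19 in CON and 8.07, 8.02 and 8.17 at CT1, 8.07, 7.88 and 7.94 at CT7, 8.04, 7.90 and 7.99 at CT13, and 8.01, 7.93 and 7.95 at CT19 in MUT, a difference of -0.11 ± 0.03 (adjusted p = 0.031). The pooled SD between arrays of a group was 0.089, 0.072 and 0.076 for these 3 genes, and Col7a1 was lower at 3 of 4 times. Single omissions ended the calls of Col7a1 (CON CT1 replicate 3, CON CT7 replicate 3, CON CT13 replicate 1, CON CT19 replicate 1, MUT CT1 replicate 2, MUT CT7 replicates 2 and 3, MUT CT13 replicate 2 and MUT CT19 replicate 2), of Col19a1 (CON CT7 replicate 2, MUT CT1 replicate 1 and MUT CT19 replicate 1) and of Col27a1 (CON CT1 replicate 2, CON CT13 replicate 1, CON CT19 replicate 2, MUT CT1 replicate 2, MUT CT7 replicate 2, MUT CT13 replicate 3 and MUT CT19 replicate 1).

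The sign of the difference went with signal level. Among the 20 collagens at or above the 60th percentile 15 were higher in MUT, beside 68.9% of all genes of that level, and among the 23 dimmer collagens 2 were, beside 27.9% of all genes. Without the 3 CON arrays of narrow spread 1 collagen passed, Col18a1 at 0.16 (adjusted p = 0.0362), beside 1.91% of all genes. The differences of the other 8 were then 0.29 for Col6a1, 0.18 for Col6a2, 0.15 for Col5a1, -0.13 for Col2a1, -0.13 for Col22a1, -0.14 for Col27a1, -0.10 for Col7a1 and -0.07 for Col19a1 (-0.11 with all arrays). The mesothelium score as a covariate left Col18a1 alone too (0.13, adjusted p = 0.042), beside 4.58% of all genes, with the other 8 at 0.25, 0.18, 0.16, -0.12, -0.09, -0.11, -0.07 and -0.10 in the same order. The group mean of the mesothelium score was higher in MUT at each time. Means were -0.24 and 0.00 for CON and MUT at CT1, -0.65 and -0.19 at CT7, 0.10 and 0.25 at CT13, and 0.25 and 0.44 at CT19. Arrays of the genotypes overlapped at CT1, CT13 and CT19. At CT13 they ran from -0.08 to 0.45 in CON and from -0.14 to 0.89 in MUT. After quantile normalization Col5a1, Col6a2, Col7a1, Col19a1 and Col22a1 no longer passed and Col9a2 did, beside 12.6% of all genes. After the arrays were shifted to the same median 10 collagens were higher and 2 lower, against 4 and 5 before. Of all genes 26.2% passed then, against 21.7% before.

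**Figure D4:**
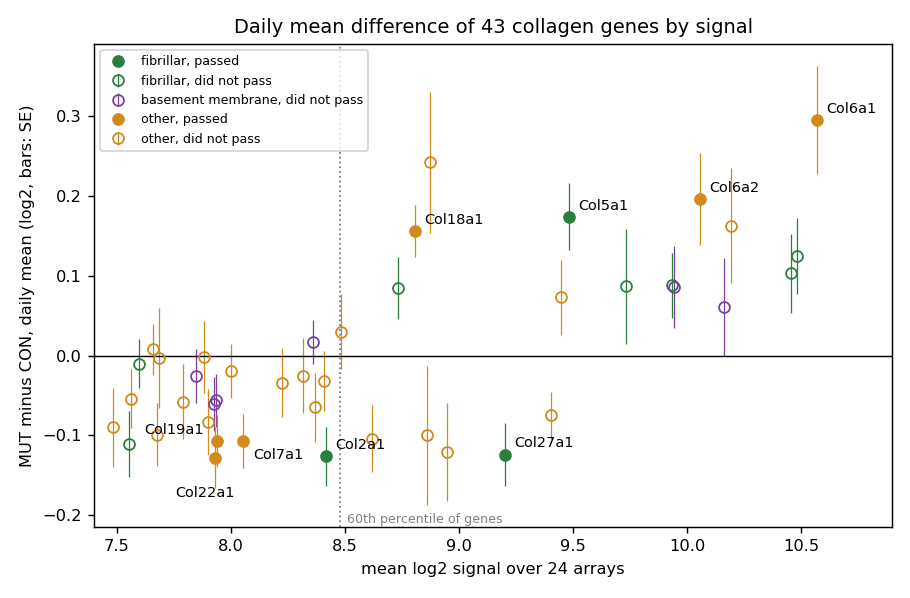
Difference in daily mean, MUT minus CON (vertical axis, log2, bars are SE), against mean signal over 24 arrays (horizontal axis, log2) for 43 collagen genes by class; filled points passed the test and the dotted line is the 60th percentile of all genes. Of the 20 genes right of the line 15 are above 0, and of the 23 left of it 2 are.

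At single time points other than CT7 no collagen passed (limma; 0.0451% of all genes passed at CT1, 0.322% at CT13 and 2.74% at CT19). Counts at an unadjusted p under 0.05 were 6 of 43 at CT1 (11.5% of all genes), 5 at CT7 (20.6%), 12 at CT13 (19.8%) and 4 at CT19 (22.8%). The fibrillar chains made up 7 of the 12 at CT13, 4 higher and 3 lower in MUT. Lower were Col2a1 (-0.22), Col27a1 (-0.20) and Col11a2 (-0.19), with adjusted p from 0.145 to 0.202, and higher was Col1a1 by 0.22 (adjusted p = 0.221). Col5a3 differed by 0.41 ± 0.14 (adjusted p = 0.157), Col3a1 by 0.33 ± 0.10 (adjusted p = 0.109) and Col5a1 by 0.31 ± 0.09 (adjusted p = 0.0877). The CT13 means of Col5a3, Col3a1 and Col5a1 were 9.35, 10.28 and 9.27 in CON and 9.76, 10.61 and 9.59 in MUT.

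Chains of the same trimer, and Col1a1 with Col3a1 of the same fibrils, were compared within groups, as deviations from the group mean over 24 arrays, so that time and genotype do not enter. Over 9 pairs, with permutation p-values within groups (two-sided) adjusted over the pairs, 3 passed 0.05. Col4a1 and Col4a2 correlated at r = 0.90 and rho = 0.86 (permutation, adjusted p = 0.0018 and 0.00153; r = 0.85 without the 2 arrays farthest from the median), and Col4a2 ranked 1 of 15525 genes by r with Col4a1. Col6a1 and Col6a2, neighbours on chromosome 10, gave r = 0.85 and rho = 0.75 (permutation, adjusted p = 0.00418 and 0.00762), with 0.71 without the 2 arrays and rank 5. Col1a1 and Col1a2, on separate chromosomes, gave r = 0.61 and rho = 0.71 (permutation, adjusted p = 0.00579 and 0.00762), with 0.72 without the 2 arrays and rank 86.

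The other pairs did not pass. Col5a1 with Col5a2 gave r = 0.58 and rho = 0.49 (permutation, adjusted p = 0.0721 and 0.111), Col6a1 with Col6a3 r = 0.64 and rho = 0.53 (permutation, adjusted p = 0.0575 and 0.0889), and Col1a1 with Col3a1 r = 0.63 and rho = 0.50 (permutation, adjusted p = 0.0575 and 0.0889). Without the 2 farthest arrays these were 0.45, 0.45 and 0.33. Col4a3 with Col4a4 (r = -0.03, rho = -0.09), Col4a5 with Col4a6 (0.15, 0.23) and Col8a1 with Col8a2 (-0.02, 0.15) did not pass either (permutation, adjusted p from 0.416 to 0.952). Col4a3 with Col4a4 and Col4a5 with Col4a6 are head-to-head gene pairs too, with 1342 bases between the starts of Col4a6 and Col4a5, and their signals lay below the 60th percentile. All points share the arrays' total RNA and normalization.

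By Pearson's r of signals over the 24 arrays, given as a description, the genes most like Col1a1 were Col5a1 (0.87), Ckap4 (0.81), Col6a2 (0.79), Septin9 (0.78) and Col3a1 (0.77). Those most like Col4a1 were Col4a2 (0.92), Map4k4 (0.81), Hnrnpl (0.80), Dchs1 (0.80) and Ctnnbl1 (0.77). Thus 3 of 5 in the first set and 1 of 5 in the second were collagens.

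The genes that make, cross-link, degrade and bind collagen were read from lists of 65 genes, 52 of them tested. These lists were drawn up with earlier results of the data known. In CON 20 of the 52 passed the rhythm test, beside 17.1% of all genes (18 of 42, beside 28.8%, with a filter at the 60th percentile). The median size of the 52 was 0.28 against 0.18 over all genes. The count was 10 with the fibroblast score (5.08% of all genes) and 12 with the mesothelium score (9.47%). Among enzymes that modify the chains 3 of 13 passed, Ppib, a prolyl isomerase of the collagen hydroxylation complex (0.62 ± 0.10, peak CT17.4), Crtap of the same complex (0.29 ± 0.08, CT18.4) and P3h2, a prolyl hydroxylase (0.34 ± 0.09, CT17.1). Serpinh1, the collagen chaperone HSP47, had 0.58 ± 0.12 with a peak at CT19.0, near the peak of Col6a1. Lox, which starts cross-linking of fibrils, had 0.60 ± 0.10 (CT19.8), and Pxdn, the peroxidase that cross-links type IV, had 0.31 ± 0.09 (CT2.18), near the peak of Col4a1 and Col4a2. Of fibril assembly genes 2 of 8 passed, Pcolce2 (0.69 ± 0.14, CT16.5) and Dpt (0.73 ± 0.15, CT17.9).

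Degradation and receptor genes followed. Of collagenases, gelatinases and their inhibitors 5 of 8 passed in CON, among them the inhibitors Timp4 (1.06 ± 0.13, CT16.5) and Timp2 (0.75 ± 0.11, CT17.5) and the membrane collagenase Mmp14 (0.44 ± 0.08, CT22.9). Of the collagen receptors 3 of 6 passed, Ddr1, Ddr2 and Itga11, with peaks from CT17.65 to CT18.13. Of the 9 basement membrane partners 4 passed, Lama4 (0.46 ± 0.09, CT23.9), Lama5 (0.35 ± 0.07, CT4.72), Lamb1 (0.39 ± 0.10, CT4.32) and Nid2 (0.41 ± 0.11, CT23.1). Under every alternative tried the calls of Timp4, Mmp14 and Lama4 held. Those of Serpinh1, Crtap, P3h2 and Ddr2 ended with the fibroblast or mesothelium score and without the 3 arrays of narrow spread, and those of Pcolce2, Timp2 and Itga11 with either score. Those of Ppib, Dpt and Lama5 ended with the fibroblast score, that of Lamb1 with the mesothelium or endothelium score, those of Lox and Lamb1 without the 3 arrays, and that of Ddr1 with the mean of its probe sets. Single omissions ended the calls of P3h2 and Crtap (4 arrays each), Ddr2 (3), Pxdn (6) and Nid2 (9), and the last pair also ended under 6 and 5 other alternatives.

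Between genotypes 16 of these 52 differed in daily mean, beside 21.7% of all genes, and 15 of them were higher in MUT (12.3% of all genes). The count was 4 without the 3 arrays of narrow spread, 6 with the mesothelium score, 8 with the endothelium score, and 8 after quantile normalization or with the trend on signal level removed. As above, 68.9% of all genes at or above the 60th percentile had a positive difference. Lox was higher by 0.40 ± 0.05 (adjusted p = 0.000187), Timp4 by 0.38 ± 0.06 (adjusted p = 0.00146) and Crtap by 0.27 ± 0.04 (adjusted p = 0.000388), and these 3 calls held under every alternative tried. Nid1, the nidogen that links type IV to laminin, was higher by 0.18 ± 0.04 (adjusted p = 0.00555), while Col4a1 and Col4a2 differed by 0.06 ± 0.06 and 0.09 ± 0.05 and did not pass. The Nid1 call ended without the 3 arrays of narrow spread. In rhythm 4 of the 52 differed between genotypes, Timp4, Timp3, Mmp14 and Ddr1, beside 1.44% of all genes. Single omissions ended these calls for Timp4 and Ddr1 (2 arrays each), Timp3 (10) and Mmp14 (21), the count ran from 0 (without MUT CT7 replicate 3) to 7 (without MUT CT13 replicate 2), and without the 3 arrays of narrow spread Ddr1 was the one of the 4 to keep its call. The Ddr1 call ended with the mean of its probe sets and with the endothelium score, and that of Mmp14 under 7 alternatives, quantile normalization and the replicate block among them.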

How the data were processed

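Total RNA of mouse eWAT was labelled with biotin and hybridised to Affymetrix arrays, 1 per mouse. The authors deposited log2 signals, 1 for each probe set, and the submitters' processing notes name RMA and Affymetrix Expression Console without versions. No label or header names a genome build for the probe sets. The labels do not say whether mice shared litters or cages. The 44 collagen genes have 47 probe sets that carry 1 symbol each, and the brightest by mean signal was used. Genes whose mean signal lay below the 30th percentile were not tested.

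A model of 8 group means (16 residual df) was fitted to 15526 genes with limma 3.58.1 in R 4.3.3, tested on simulated data. A pair of contrasts, cosine and sine with a 24-h period, gave the rhythm tests (moderated F), and genotype differences had the moderated test, two-sided, all adjusted by Benjamini-Hochberg over all genes at 0.05. Sampling was every 6 h at 4 times, and the 24-h test leaves out 12-h components, which were not tested on their own. An alternative F test for any difference among the 4 times gave 7 collagens in CON, beside 13.2% of all genes. The number of arrays limits the precision. Permutation p-values of chain pairs used 100000 draws.

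Collagens called in any comparison are described, with values per array for the smallest p-values, chain pairs and genotype calls. Of other lists up to 4 called genes per comparison are named, with the 5 genes nearest to Col1a1 and to Col4a1, and Arntl and Syt10 as a check of the labels. The members and lists were chosen with earlier results of these data known. Cell scores are the median over marker genes of the deviation from each gene's mean. Lists covered fibroblasts, mesothelium, endothelium, smooth muscle, macrophages, adipocytes, neurons, epididymis and skeletal muscle. Over arrays the skeletal muscle score ran between -0.21 and 0.19 and the epididymis score between -0.14 and 0.17. Alternatives covered normalization, filters, probe set choice, weights, variance, the replicate block, covariates and omission of each array, and the endothelium score was added after the data were seen. Promoter windows are RefSeq's (GRCm38.p6). Python 3.11.15 and matplotlib 3.10.9 made the figures.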

Additional observations from a re-analysis of the deposited data

How the results depend on the processing

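For rhythms in CON the count of 9 collagens (17.1% of all genes) was 5 with the fibroblast score as a covariate (5.08%). It was 13 with array weights (27.0% of all genes), with Col1a1, Col1a2, Col9a2 and Col20a1 added. After quantile normalization it was 9 too (17.0% of all genes), with Col3a1, Col4a1 and Col6a1 lost and Col9a2, Col20a1 and Col26a1 gained. With the trend on signal level removed it was 7 (15.5%), with the same chains lost and Col9a2 gained. Over single omissions it ran from 4 (without CON CT7 replicate 3) to 12 (without MUT CT1 replicate 3). Omission of CON CT19 replicate 1 gave 5. For rhythms in MUT the count of 0 (0.348% of all genes) was 4 with array weights (3.57%) and 0 to 1 over omissions. For the rhythm difference it was 0 to 1 over omissions. For the daily mean the count of 9 was 5 after quantile normalization, with the trend on signal level removed or with a filter at the 60th percentile, 14 with array weights, 4 with the endothelium score, and 1 without the 3 arrays or with the mesothelium score. Single omissions gave 7 to 12. At CT7 the count of 1 (4.05% of all genes) was 0 with the trend removed (3.28%) and with no level filter (2.52%). It was 0 with each of the 3 scores too (0.915% to 4.35% of all genes). It was 4 with array weights (17.6% of all genes), 2 from the arrays of that comparison alone (5.36%), and 0 to 1 over omissions. At CT13 it was 1 with arrays shifted to the same median (0.747% of all genes), against 0 (0.322%). At CT19 it was 1 with array weights (10.6% of all genes), against 0 (2.74%). Over omissions it was 0 at CT1, CT13 and CT19. The causes were not tested. No collagen that passed between genotypes reversed its direction under an alternative. A rhythm size has no direction, and peak times were not compared over the alternatives.

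With the replicate letter as a block (replicate block) the count was 9 for CON (15.6% of all genes), 8 of them shared. Col4a1 was lost (limma, adjusted p = 0.0613) and Col15a1 gained. The count was 9 for the daily mean (20.4% of all genes), all shared, and 0 at CT7 (3.68%). The letters are not known to pair mice: deviations of arrays with the same letter had a median correlation of -0.016, 17 of 84 pairs were over 0.1, and 5 of 24 arrays were closest to their own letter. The number of arrays, 3 per group, limits the precision.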
